A study of Rattus norvegicus with 10 samples.

Results

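Transcripts of the central carbon pathways were examined in the milk fat layer of rat dams, taking the enzymes and transporters of glycolysis, lactate handling, the pentose phosphate pathway, pyruvate entry and the citrate cycle. Membership was set by name, from a list of 44 gene symbols matched exactly to the symbols of the deposited table, and 42 of them were found among its 16748 genes. Tpi1 was not matched, and Idh3b did not match because the table spells it Idh3B, so its values are given apart. The 42 comprised 13 of 14 listed genes of glycolysis, 4 of lactate handling, 6 of the pentose phosphate pathway, 5 of pyruvate entry and 14 of 15 of the citrate cycle with its cytosolic counterparts. All 42 varied between libraries and entered the fit of 12992 genes.

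All dams were wild-type Sprague-Dawley rats, and milk was taken by hand on postnatal day (P)10, after a period apart from the litter and after oxytocin given under light isoflurane anesthesia. The SD group (standard housed, 5 libraries) was kept in standard laboratory cages and the EE group (environmental enrichment, 5 libraries) in large multi-level cages with toys, tubes and ramps. Females of both groups were housed in pairs from before breeding. No litter was reared together with another, since each SD dam had a cage to itself by the time of birth and a partition kept the EE nests apart. That partition stood inside the shared EE cage and let the dams hear, smell, touch and partly see each other. Social contact thus differed between the groups along with enrichment, and EE libraries could come from cage mates. Litters of both groups were brought to a common size and partly exchanged between housing groups after birth. The comparison asks whether the housing of the mother goes with different milk transcripts. As the labels name neither cage nor litter, every p-value rests on the spread among these libraries alone, part of which may be technical.

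Glucose taken up by the lactating mammary epithelium is used for lactose, for the glycerol and carbon of milk fat and for energy. Glycolysis breaks glucose down to pyruvate, the pentose phosphate pathway yields NADPH for fatty acid synthesis and ribose for nucleotides, and the citrate cycle oxidizes acetyl-CoA in mitochondria and exports citrate, whose carbon can go to fat. Milk fat globules are released wrapped in membrane of the secretory cell and carry some of its cytoplasm and RNA.

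Sequencing depth was 43280000 to 70190000 reads per library, taking the smallest step of the normalized counts as the worth of 1 read. Casein transcripts made up 57.0 to 61.2% of the normalized counts in SD libraries and 40.4 to 61.0% in EE libraries, with the lowest shares in EE replicates 3 (44.1%) and 5 (40.4%). Mean counts in the authors' deposited comparison of the housing groups match a set of libraries in which SD replicate 4 is left out, so results are given with and without that library. Secretory epithelium markers (10 of 10 in the table, Csn2, Lalba and Wap among them) summed to 31971700 to 41810700 counts in SD and 14332500 to 40086200 in EE. Most of that sum was milk protein transcripts, with Csn2 at 12066200 to 16486200 in SD and 5145720 to 15018000 in EE. Elf5 was at 42374 to 63293 in SD and 51785 to 56750 in EE, and Krt8 at 5497 to 9741 and 6548 to 7993. Each of the 10 overlapped between the groups. Summed markers of myoepithelium (6 of 6) were at 1588 to 2974 counts in SD and 2515 to 3012 in EE. Most of that was Acta2, at 1369 to 2066 in SD and 1922 to 2699 in EE. Myh11 lay the other way (26.6 to 126 in SD, 18.9 to 41.6 in EE), and Mylk overlapped (172 to 755 in SD, 188 to 556 in EE). Krt14, Krt5 and Oxtr had few counts. Immune cell markers (9 of 10) summed to 533 to 3054 in SD and 288 to 2074 in EE. Sums for adipocytes (5 of 5, Plin1 at 0 in every library) were 172 to 326 in SD and 172 to 305 in EE, and for endothelium (3 of 3) up to 69.5 in SD and up to 109.8 in EE. Fibroblast markers (4 of 5, Col3a1 and Dcn at 0 in every library) summed to at most 13.6, and erythroid markers (4 of 4) to 186 to 434 in SD and 165 to 1537 in EE. The summed skeletal muscle markers (3 of 3) did not overlap between the groups, at 1271 to 1953 in SD and 2207 to 2413 in EE. Most of that sum was Acta1, at 1098 to 1856 in SD and 1831 to 2311 in EE. Reads of Acta1, as of Acta2, can be confused with those of near-identical actin genes. Acta1 by itself overlapped between the groups, as did the other muscle markers, Ckm (32.1 to 183 in SD, 90.1 to 347 in EE) and Mylpf (14.9 to 70.4 in SD, 12.0 to 37.7 in EE). Whether these shifts had a part in the results below was not tested. In a bulk sample, fewer cells of a type and less RNA per cell cannot be told apart.

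Genes of central carbon metabolism lay mostly above 0 in EE minus SD, by small amounts. The log2 difference was above 0 for 36 of 42 genes, against 48% of all genes tested, and the median was 0.19, against -0.0087 for all genes. At an unadjusted p under 0.05 in limma, 13 of 42 (31.0%) were higher in EE and 0 were lower, where 3.35% of all genes were higher and 4.05% lower. These 13 were Rpia, Pgd and Rpe of the pentose phosphate pathway, Pfkl, Pfkm, Pgk1, Pgam1 and Eno1 of glycolysis, Ldha, Dld, and Idh3a, Dlst and Mdh2 of the citrate cycle. The gene list was chosen with earlier results of these data known. Shares of members set beside all genes, here and below, are therefore descriptions and not an independent test. None of the 42 passed an adjusted p of 0.05 (lowest adjusted p = 0.506 by limma), nor did any of the 12992 genes over all libraries, of which 435 were higher and 526 lower at an unadjusted p under 0.05.

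Without SD replicate 4, 20 of 42 genes (47.6%) were higher at an unadjusted p under 0.05 and 0 lower, beside 5.15% and 5.24% of all genes, and 36 of 42 differences were above 0, beside 49.7%. The 20 held all 13 named above, and Aldoa, Aldoc, Gapdh, Tkt, Idh3g, Fh and Mdh1 were added. The lowest adjusted p among the members was then 0.229 by limma, for Fh, while 1 gene of the table that is not a member passed 0.05 (0.00772%). SD replicate 4 was the highest of all 10 for 7 genes and the lowest for 8 of the 42, so it did not sit on the same side throughout.

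**Figure D1:**
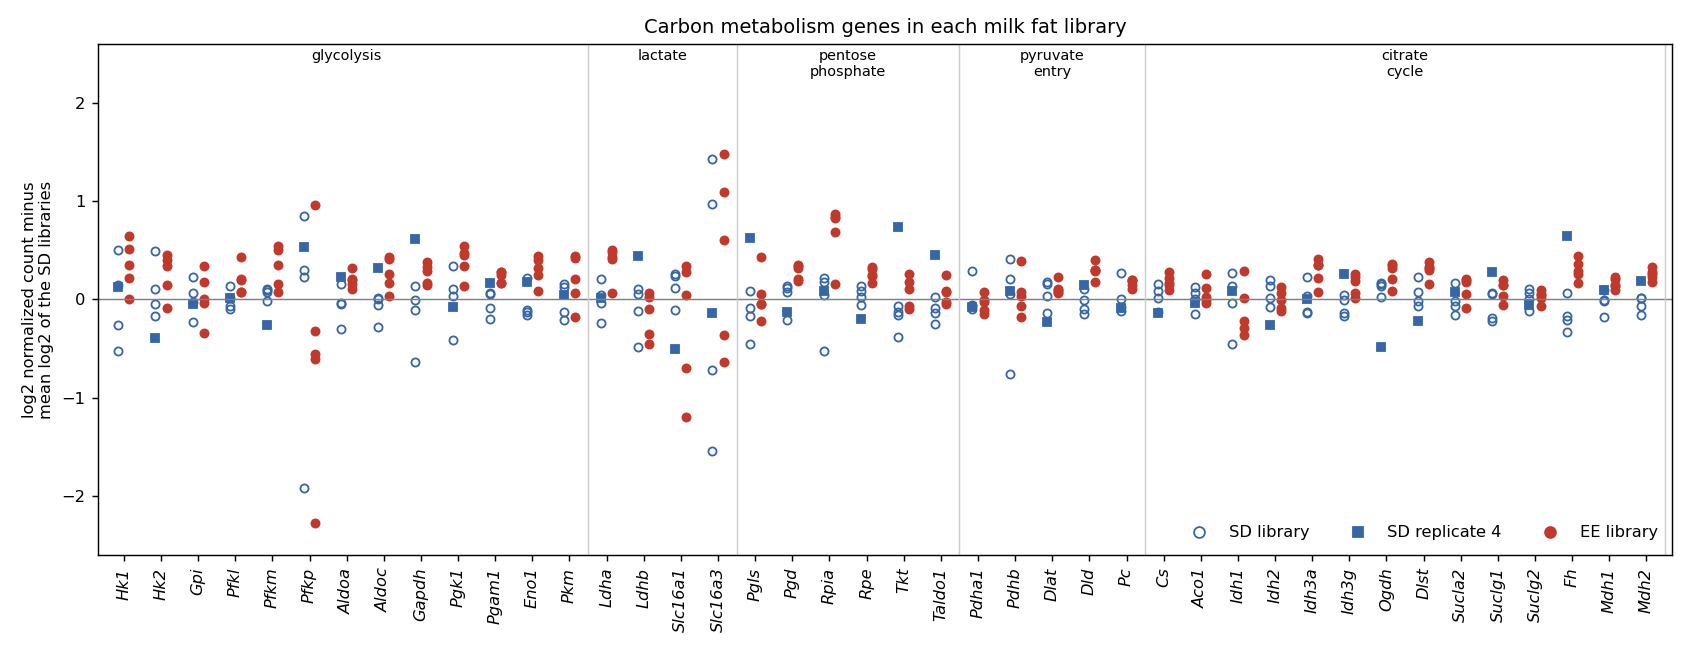
Each point is 1 library: log2 normalized count of 42 carbon metabolism genes, relative to the mean log2 of the 5 SD libraries (y axis), with genes on the x axis in pathway order. EE libraries (filled) lie mostly above 0, SD replicate 4 (square) stands high for Tkt, Gapdh and Fh and low for Ogdh, and Pfkp, Slc16a1 and Slc16a3 spread widely.

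Abundant genes were also counted apart. Of 36 members with a mean of at least 1000 normalized counts, 11 were higher at an unadjusted p under 0.05 and 18 without SD replicate 4, where 4.8% of all such genes were higher and 5.35% lower over all libraries, and 8.48% higher and 8.14% lower without it. No such member was lower. Over the 8 libraries with a casein share over 50%, which leave out EE replicates 3 and 5, 9 members were higher and 0 lower, beside 2.54% and 3.01% of all genes. When the casein share entered the fit as a covariate, 10 were higher and 0 lower, beside 3.46% and 3.86%. Both settings were chosen after seeing the data. Log2 differences over these 8 libraries and with the covariate were 0.24 and 0.27 for Eno1, 0.19 and 0.23 for Pfkl and 0.22 and 0.16 for Pfkm, all missing the threshold, beside 0.30, 0.20 and 0.30 over all libraries. Idh3a missed it in the first setting, at 0.27 as over all libraries.

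**Figure D2:**
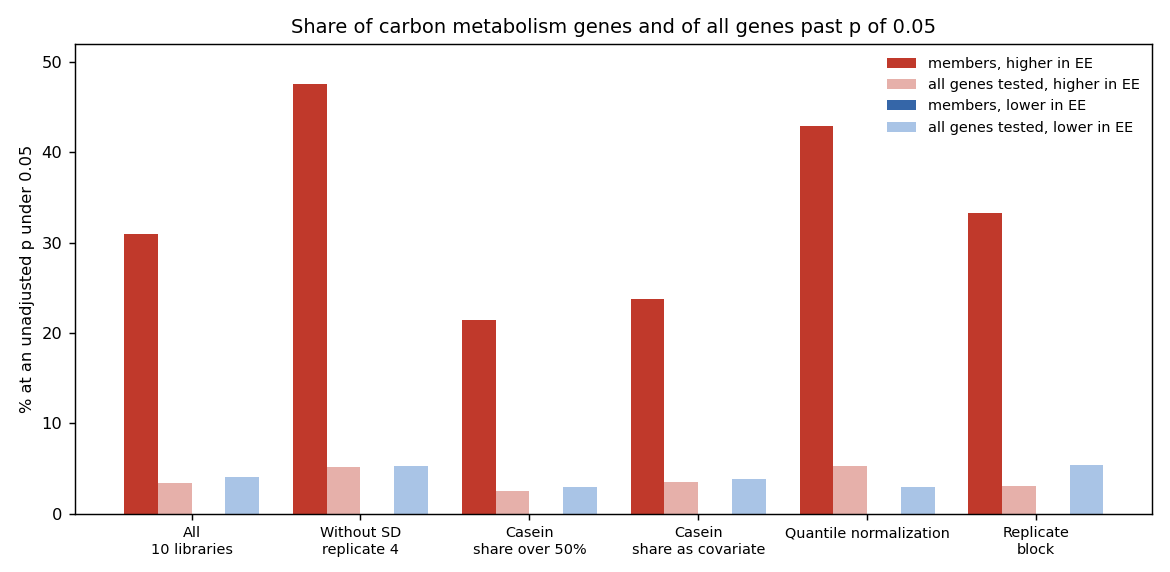
Bars give the percentage of the 42 carbon metabolism genes, and of all genes tested, at an unadjusted limma p under 0.05 (y axis), higher or lower in EE, under 6 settings (x axis). Members higher in EE made up 21.4 to 47.6%, all genes higher in EE 2.54 to 5.26%, and 0 members were lower.

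Quantile normalization raised the count to 18 members (5.26% of all genes), and it also turned the balance of all genes, from 435 higher and 526 lower to 683 higher and 390 lower. Every EE library exceeded every SD library for 3 of 42 genes, Pgd, Rpe and Dld, which held for 0.754% of all genes, while 0.485% were lower without overlap. Without SD replicate 4 this held for 8 genes, with Aldoc, Gapdh, Pgam1, Fh and Mdh2 added, beside 2.12% and 1.55% of all genes. SD replicate 5 held the lowest count of all 10 libraries for 15 of the 42 genes, EE replicate 5 the highest for 9 and EE replicate 2 the highest for 8.

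Summed over members, counts of the citrate cycle genes did not overlap between the groups, at 87546 to 91428 in SD and 96658 to 103984 in EE. The sums of the glycolytic genes were 139369 to 203384 in SD, the highest in SD replicate 4, and 181026 to 217009 in EE. Lactate genes summed to 16665 to 21953 in SD and 18459 to 25173 in EE, and pyruvate entry genes to 76242 to 100203 in SD and 90016 to 101084 in EE. For the pentose phosphate pathway the SD sums were 48336 to 55824 apart from 75240 in SD replicate 4, and the EE sums were 57744 to 64388. All 42 genes together summed to 393987 to 473997 counts in SD and 450617 to 504088 in EE, which overlap, and came to 1.54 to 1.70% of the non-casein counts in SD and 1.72 to 2.37% in EE. The highest shares were in EE replicates 3 (2.24%) and 5 (2.37%), the libraries with the lowest casein share, and the other EE libraries were at 1.72 to 1.83%. The non-casein counts still held Wap and Lalba, which were also lowest in EE replicates 3 and 5.

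Promoters were searched for the core of the hypoxia response element, ACGTG, and for the E-box, CACGTG, which contains that core. Both strands were read. Several glycolytic genes are known targets of factors that bind such letters. Windows of 300 bases around the transcription start from RefSeq (build GRCr8, not the rn6 build of the counts) were found for 38 of the 42 members, 42 windows in all. No window was given for Pgk1, Pgls, Pc and Idh3a. ACGTG was in 15 member windows (35.7%), against 19.3% of 33469 windows of all genes, and CACGTG in 4 (9.52%), against 6.42%. The windows of all genes were neither limited to genes with counts here nor matched for base composition, and the difference in share was not tested. Among the genes higher at an unadjusted p under 0.05, 4 of 11 with a window held ACGTG, and 11 of 27 among the others. The 250 bases before the start are shown for 4 genes chosen after their values were seen. Rpia had the largest difference and no match (chr4:104307719-104307968, minus strand), Ldha had a match at 87 bases and a further one at 73 bases before the start (chr1:106507842-106508091, plus strand), Pgam1 had 1 match at 141 bases (chr1:250672902-250673151, plus strand), and Slc16a1, which was not higher in EE, had 1 at 216 bases (chr2:194812410-194812659, plus strand). Capitals mark the core in either orientation, and the E-box where both orientations meet. A match is a stretch of letters and not a shown binding site.
Rpia: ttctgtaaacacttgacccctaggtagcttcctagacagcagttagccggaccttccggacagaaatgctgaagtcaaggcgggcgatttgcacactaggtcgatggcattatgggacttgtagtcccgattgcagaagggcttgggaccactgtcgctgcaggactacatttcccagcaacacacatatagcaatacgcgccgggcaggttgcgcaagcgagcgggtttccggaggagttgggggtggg
Ldha: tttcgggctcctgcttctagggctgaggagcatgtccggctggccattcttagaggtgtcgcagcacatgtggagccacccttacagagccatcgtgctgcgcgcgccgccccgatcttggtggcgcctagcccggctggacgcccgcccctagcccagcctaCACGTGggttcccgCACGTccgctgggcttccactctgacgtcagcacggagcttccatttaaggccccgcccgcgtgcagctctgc
Pgam1: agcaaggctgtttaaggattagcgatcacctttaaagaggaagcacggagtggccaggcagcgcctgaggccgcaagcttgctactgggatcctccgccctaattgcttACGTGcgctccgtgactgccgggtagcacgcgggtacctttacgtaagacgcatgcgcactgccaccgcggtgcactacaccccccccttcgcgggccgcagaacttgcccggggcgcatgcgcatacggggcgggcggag
Slc16a1: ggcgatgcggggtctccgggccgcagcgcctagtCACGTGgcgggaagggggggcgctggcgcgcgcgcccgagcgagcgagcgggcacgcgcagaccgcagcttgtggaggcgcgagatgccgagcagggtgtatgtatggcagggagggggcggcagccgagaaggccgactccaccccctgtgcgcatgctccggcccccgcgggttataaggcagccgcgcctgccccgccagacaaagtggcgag

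Values below are normalized counts, each listed for replicates 1 to 5 of a group in order, and differences are log2 EE minus SD with the standard error (SE) and, where shown, the Benjamini-Hochberg adjusted p of limma over all 10 libraries unless stated. The differences are those of the deposited log2 values, which level off at 5.46 where a gene has no reads. They, and the folds taken from them, are therefore not ratios of the listed counts. At low counts they are drawn toward 0. A gene is called higher or lower in EE where its unadjusted limma p was under 0.05, which is the threshold spoken of in leave-out fits. Levels are compared between libraries and not between genes, as counts were not divided by gene length. Reads of Gapdh, Pgk1, Eno1, Ldha, Aldoa, Pgam1 and Pkm can also fall on processed pseudogenes, and the handling of such reads is not given in the sources used here.

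Upper glycolysis traps and splits glucose, and its hexokinases and isomerase did not pass the threshold over all libraries. Hk1, the hexokinase of most tissues, was at 658, 513, 323, 505 and 386 in SD and 539, 725, 589, 464 and 661 in EE. The groups overlapped, with a difference of 0.30 (SE 0.17, adjusted p = 0.723) that passed the threshold only without SD replicate 1 (0.41). Hk2, the insulin-responsive hexokinase, was at 1879, 2087, 2738, 1481 and 1725 in SD and 2464, 2654, 2149, 1828 and 2564 in EE. SD replicate 3 held its highest count, and its difference of 0.24 (SE 0.15, adjusted p = 0.759) was 0.36 without that library, where it passed the threshold. Gpi, which turns glucose phosphate into fructose phosphate, ranged over 7128 to 9802 in SD and 6574 to 10555 in EE, with a difference of 0.026 (SE 0.13).

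Phosphofructokinase commits sugar to glycolysis, and 2 of its 3 isozymes were higher in EE at an unadjusted p under 0.05. Pfkl, the liver-type subunit (gene ID 25741), was at 6164, 5850, 6724, 6172 and 5705 in SD and 6457, 6446, 7077, 8273 and 6991 in EE. Of the EE libraries 3 exceeded every SD library, and the difference of 0.20 (SE 0.089, adjusted p = 0.673) missed the threshold when SD replicate 1, 2 or 5 or EE replicate 3, 4 or 5 was left out (0.14 to 0.20). Pfkm, the muscle-type subunit (gene ID 65152), was at 702, 692, 710, 547 and 651 in SD and 932, 732, 841, 695 and 961 in EE. The 4 EE libraries other than replicate 4 exceeded every SD library, and the difference was 0.30 (SE 0.12, adjusted p = 0.640). It was 0.26 without EE replicate 1, 0.25 without EE replicate 5 and 0.16 with casein share in the fit, missing the threshold in each. Pfkp, the platelet-type subunit, was scarce and scattered, at 105, 15.5, 68.5, 84.7 and 72.0 in SD and 114, 12.1, 38.3, 46.6 and 39.8 in EE. It had the lowest difference of the 42 genes, -0.26 (SE 0.27, adjusted p = 0.877).

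Aldolase splits the sugar bisphosphate into trioses, and both its isozymes missed the threshold over all 10 libraries and passed it when SD replicate 4 was left out. Over all 10 libraries both also passed it under quantile normalization (Aldoa 0.25, Aldoc 0.49) and with library weights (0.22 and 0.30). Aldoa (gene ID 24189) was at 14734, 12879, 12965, 15474 and 10733 in SD and 14730, 15160, 14261, 15278 and 16590 in EE, a difference of 0.20 (SE 0.11, adjusted p = 0.706) and of 0.25 without SD replicate 4 (SE 0.095, adjusted p = 0.428). Aldoc (gene ID 24191), known from brain, was at 67678, 64409, 67083, 83820 and 55404 in SD and 75403, 68541, 89316, 80013 and 90361 in EE. With SD replicate 4 left out, every EE library exceeded every SD library for Aldoc, and the difference went from 0.26 (SE 0.14, adjusted p = 0.707) to 0.34 (SE 0.12, adjusted p = 0.417).

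Lower glycolysis, the steps from triose to pyruvate that yield ATP, held 3 genes that were higher in EE over all libraries, Pgk1, Pgam1 and Eno1, and Gapdh as well without SD replicate 4. Gapdh (gene ID 24383), which oxidizes the triose, was at 19423, 23085, 20947, 32034 and 13468 in SD and 23141, 25554, 27271, 26438 and 23549 in EE. SD replicate 4 was the highest of all 10 and SD replicate 5 the lowest, and the difference was 0.26 (SE 0.18, adjusted p = 0.785) with SD replicate 4 and 0.41 (SE 0.14) without it. Gapdh is often used to normalize other genes, and here it did not overlap between the groups once SD replicate 4 was left out. Pgk1 (gene ID 24644), which makes the first ATP, was at 6889, 8519, 7274, 6388 and 5075 in SD and 9827, 9240, 9338, 8503 and 7400 in EE. Its difference of 0.38 (SE 0.13, adjusted p = 0.587) was a 1.31-fold higher level, and it kept to 0.28 to 0.47 with any library left out. Pgam1 (gene ID 24642), the mutase that follows, was at 10507, 11570, 11700, 12564 and 9707 in SD and 13585, 12568, 13264, 13553 and 12553 in EE. Only EE replicate 5 lay below the highest SD library, SD replicate 4. The difference was 0.23 (SE 0.088, adjusted p = 0.631), 0.27 without SD replicate 4, and it missed the threshold without SD replicate 1 (0.21), SD replicate 5 (0.18) or EE replicate 1 (0.22).

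Eno1 (gene ID 24333), the enolase that makes phosphoenolpyruvate, was at 23004, 18182, 18326, 22392 and 17713 in SD and 26124, 20982, 26830, 23497 and 24799 in EE. All EE libraries but replicate 2 exceeded every SD library, and the difference was 0.30 (SE 0.11, adjusted p = 0.631). It missed the threshold without SD replicate 5 (0.26) or EE replicate 3 (0.26), with casein share in the fit (0.27) or over libraries over 50% casein (0.24). Pkm, the pyruvate kinase that closes the pathway, ranged over 11603 to 14938 in SD and 11838 to 18150 in EE, a difference of 0.19 (SE 0.13, adjusted p = 0.772) that passed the threshold only without EE replicate 2 (0.28).

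**Figure D3:**
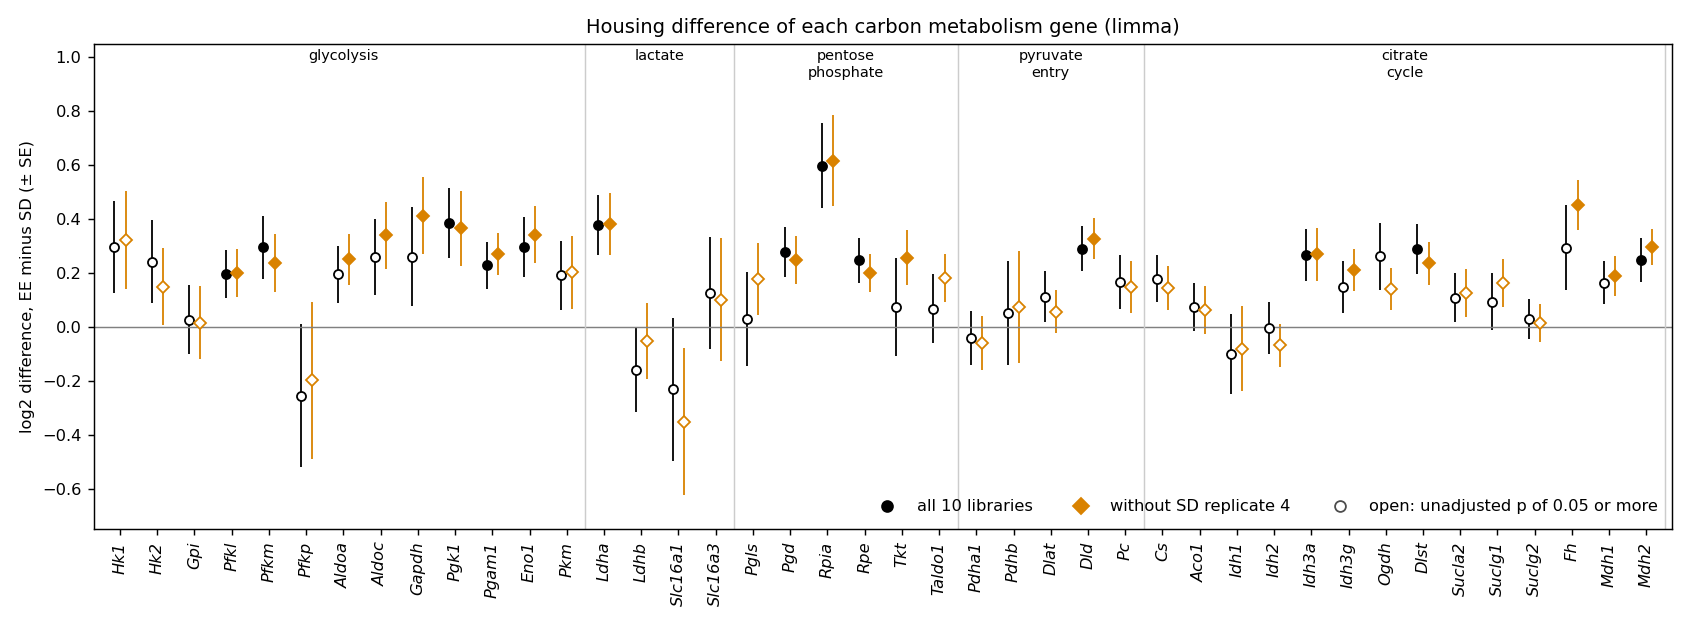
The log2 difference EE minus SD of each of the 42 genes (y axis, ± SE of limma) over all 10 libraries (circles) and without SD replicate 4 (diamonds), in pathway order on the x axis, with filled symbols at an unadjusted p under 0.05. Rpia has the largest difference (0.60), Pfkp the lowest (-0.26), and Gapdh, Tkt and Fh move most when SD replicate 4 is left out.

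Of the 4 lactate genes 2 had a difference above 0 and 2 below, and Ldha was the 1 called higher in EE. Ldha (gene ID 24533), the dehydrogenase subunit that favours the making of lactate from pyruvate, was at 16483, 14724, 13931, 14402 and 12057 in SD and 19175, 20250, 19885, 18983 and 14947 in EE. The 4 EE libraries other than replicate 5 exceeded every SD library, and the means were 14319 ± 1591 (s.d., n = 5) in SD and 18648 ± 2132 (s.d., n = 5) in EE. The difference was 0.38 (SE 0.11, adjusted p = 0.506), or 1.30-fold, and lay between 0.32 and 0.46 with any library left out. Ldhb, the subunit that favours the reverse reaction, was at 2784, 2891, 2465, 3631 and 1916 in SD and 2797, 2099, 1952, 2721 and 2498 in EE. No EE library exceeded the SD range, and the difference was -0.16 (SE 0.16, adjusted p = 0.870).

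Slc16a1, a transporter of lactate and pyruvate in many cells, was at 2632, 2410, 2059, 1566 and 2653 in SD and 2293, 2810, 1371, 2697 and 972 in EE. Its lowest counts were in EE replicates 5 and 3, the libraries with the lowest casein share, and its difference of -0.23 (SE 0.27, adjusted p = 0.887) turned to 0.21 when those were left out and to 0.34 with casein share in the fit. Slc16a3, a lactate exporter of glycolytic cells, was close to the limit of detection, at 53.1, 6.80, 12.0, 17.9 and 38.6 in SD and 55.0, 15.4, 29.9, 12.7 and 42.2 in EE. The groups overlapped for Slc16a3, with a difference of 0.13 (SE 0.21).

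The pentose phosphate pathway held 3 of its 6 members higher in EE over all libraries and 4 without SD replicate 4. Pgls, the lactonase of the oxidative branch, ranged over 923 to 1947 in SD and 1086 to 1701 in EE, with a difference of 0.030 (SE 0.17). Pgd (gene ID 100360180), phosphogluconate dehydrogenase, which makes NADPH and ribulose phosphate, was at 14356, 13966, 14530, 12136 and 11461 in SD and 16540, 16882, 15042, 15263 and 16696 in EE. Every EE library exceeded every SD library for Pgd, with means of 13290 ± 1397 (s.d., n = 5) and 16085 ± 863 (s.d., n = 5) and a difference of 0.28 (SE 0.093, adjusted p = 0.587).

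Ribulose phosphate is passed on by an isomerase and an epimerase, and both were higher in EE. Rpia (gene ID 362383), the isomerase that makes ribose phosphate, was at 366, 543, 615, 559 and 599 in SD and 938, 962, 944, 847 and 587 in EE. EE replicate 5 lay within the SD range and SD replicate 1 stood below the rest, while the other EE libraries were well above every SD library. The mean counts were 536 ± 99.4 (s.d., n = 5) and 856 ± 156 (s.d., n = 5). On the scale of the deposited log2 values, the difference of 0.60 (SE 0.16, adjusted p = 0.506 by limma), or 1.51-fold, was the largest and had the lowest p of the 42 genes over all libraries. It lay between 0.49 and 0.72 with any library left out. Rpe (gene ID 501157), the epimerase that makes xylulose phosphate, was at 1927, 2001, 1852, 1586 and 1744 in SD and 2159, 2245, 2286, 2141 and 2044 in EE. The groups did not overlap, the means were 1822 ± 163 (s.d., n = 5) and 2175 ± 94.7 (s.d., n = 5), and the difference was 0.25 (SE 0.084, adjusted p = 0.587).

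Transketolase (Tkt) and transaldolase (Taldo1), which link pentoses back to glycolysis, were both highest in SD replicate 4. With that library left out and no other change, Tkt passed the threshold and Taldo1 did not. Tkt (gene ID 64524) was at 19855, 19127, 15964, 34719 and 18732 in SD and 19922, 19448, 24976, 23558 and 22394 in EE. SD replicate 4 exceeded all other libraries, and the difference was 0.074 (SE 0.18, adjusted p = 0.941) with it, 0.26 (SE 0.10, adjusted p = 0.433) without it and -0.022 without SD replicate 3. Taldo1 ranged over 14878 to 24294 in SD, the highest again in SD replicate 4, and 17121 to 20966 in EE, with a difference of 0.067 (SE 0.13), or 0.18 without SD replicate 4 (SE 0.088, adjusted p = 0.497).

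**Figure D4:**
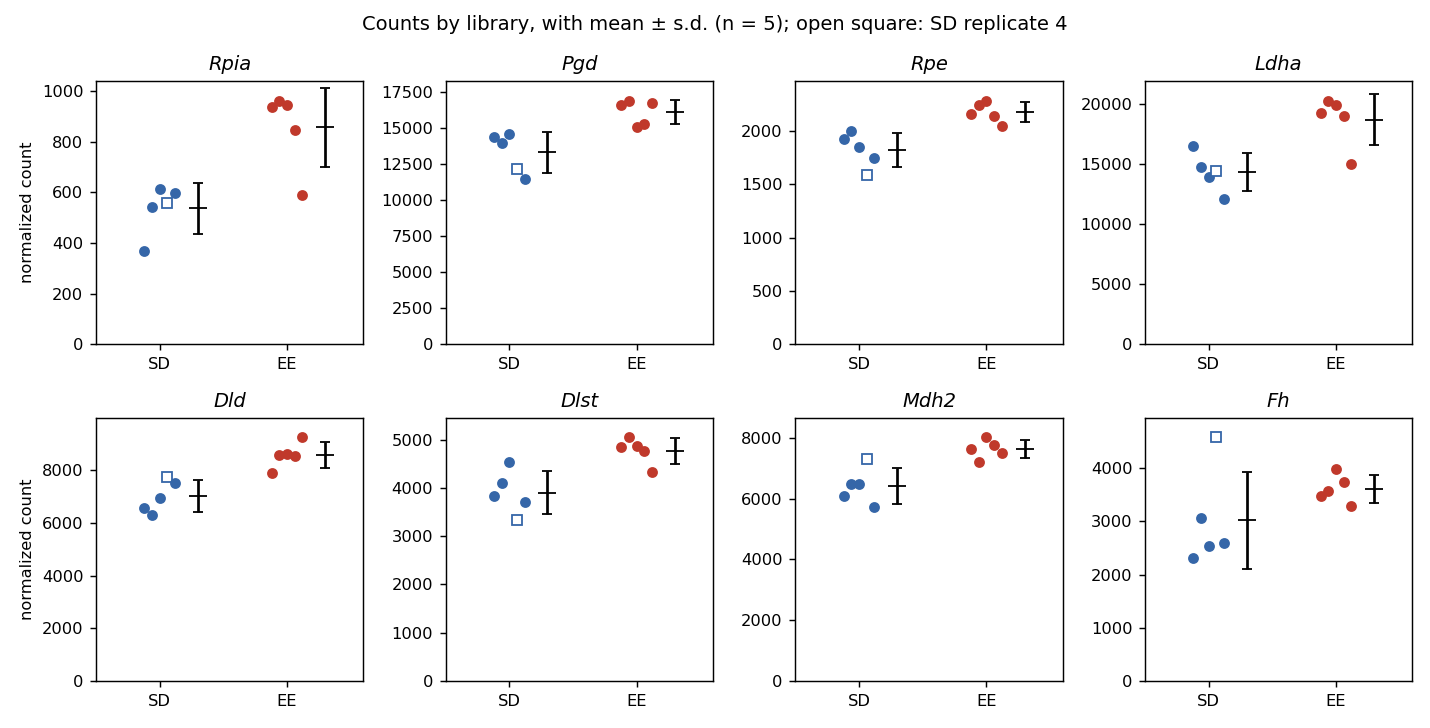
Normalized counts (y axis) of 8 carbon metabolism genes in each SD and EE library (points), with mean ± s.d. (n = 5) beside them and SD replicate 4 as an open square. Pgd, Rpe and Dld do not overlap between the groups, EE replicate 5 is the low EE point of Rpia (587) and Ldha (14947), and SD replicate 4 is the high point of Fh (4580).

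Pyruvate enters the citrate cycle through the pyruvate dehydrogenase complex or, as oxaloacetate, through pyruvate carboxylase, and Dld alone of these 5 genes was higher in EE. Dld (gene ID 298942), the dehydrogenase subunit shared by the pyruvate, oxoglutarate and branched-chain complexes, was at 6552, 6304, 6949, 7736 and 7504 in SD and 7898, 8586, 8631, 8525 and 9254 in EE. No SD library reached the lowest EE library, and the means were 7009 ± 609 (s.d., n = 5) and 8579 ± 481 (s.d., n = 5). The difference was 0.29 (SE 0.084, adjusted p = 0.506) over all libraries and 0.33 (SE 0.076, adjusted p = 0.267) without SD replicate 4. Pdha1, Pdhb and Dlat, the other members of the pyruvate complex, did not pass the threshold. Pdha1, the first catalytic subunit, ranged over 23592 to 30906 in SD and 22750 to 26573 in EE (-0.042, SE 0.10), its partner Pdhb over 10109 to 22638 in SD and 15063 to 22436 in EE (0.051, SE 0.19), and Dlat, the acetyltransferase core, over 6677 to 8828 in SD and 8194 to 9148 in EE (0.11, SE 0.094). Pc, pyruvate carboxylase, ranged over 28867 to 37766 in SD and 33617 to 35959 in EE, a difference of 0.17 (SE 0.10, adjusted p = 0.732), and of 0.24, past the threshold, without its highest library, SD replicate 3.

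The first steps of the citrate cycle, from acetyl-CoA to oxoglutarate, held 1 member higher in EE over all libraries. Cs, citrate synthase, ranged over 14468 to 17775 in SD and 16983 to 19277 in EE (0.18, SE 0.089, adjusted p = 0.687), and it passed the threshold without SD replicate 2 (0.22). Aco1, the cytosolic aconitase that also serves as an iron regulatory protein, ranged over 12458 to 15064 in SD and 13475 to 16598 in EE (0.073, SE 0.090). The NADP-dependent isocitrate dehydrogenases, which supply NADPH, overlapped between the groups. Idh1, in the cytosol, was at 840, 509, 679, 742 and 765 in SD and 542, 706, 571, 599 and 850 in EE (-0.10, SE 0.15). Idh2, in mitochondria, was at 3448, 2974, 3167, 2615 and 3603 in SD and 2899, 2965, 3280, 3421 and 3122 in EE (-0.0048, SE 0.097).

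The NAD-dependent isocitrate dehydrogenase works in the cycle itself, and its subunits lay above 0. Idh3a (gene ID 114096), the catalytic subunit, was at 2143, 1676, 1663, 1836 and 1870 in SD and 2427, 1927, 2328, 2328 and 2131 in EE. Only EE replicates 2 and 5 fell within the SD range, and the difference was 0.27 (SE 0.096, adjusted p = 0.613). Idh3g (gene ID 25179), a regulatory subunit, was at 5218, 4594, 5032, 6031 and 4502 in SD and 5095, 5286, 5905, 5743 and 6034 in EE, a difference of 0.15 (SE 0.095, adjusted p = 0.763) and of 0.21 without SD replicate 4 (SE 0.079, adjusted p = 0.428). The subunit that the table spells Idh3B ranged over 3377 to 4229 in SD and 3906 to 4395 in EE, with a difference of 0.11 (SE 0.087, adjusted p = 0.809) and of 0.15 without SD replicate 4.

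Oxoglutarate dehydrogenase carries the cycle on to succinyl-CoA and shares Dld, and its transferase core was higher in EE. Dlst (gene ID 299201), that core, was at 3829, 4101, 4536, 3332 and 3707 in SD and 4844, 5052, 4864, 4761 and 4322 in EE. All EE libraries but replicate 5 exceeded every SD library, and the difference was 0.29 (SE 0.092, adjusted p = 0.561), or 0.24 without SD replicate 4. Ogdh, the decarboxylating subunit, ranged over 6170 to 9675 in SD, the lowest in SD replicate 4, and 9176 to 11051 in EE. Its difference was 0.26 (SE 0.13, adjusted p = 0.687), 0.14 without SD replicate 4, and 0.30, past the threshold, without SD replicate 2, SD replicate 5 or EE replicate 5. Over all libraries Ogdh also passed it under quantile normalization (0.30), with median centring (0.29) and with the replicate number as a block (0.26).

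Succinyl-CoA ligase, the step that yields ATP or GTP directly, had differences of 0.029 to 0.11 in its subunits. Sucla2, the ATP-forming beta subunit, was at 2308, 2392, 2162, 2546 and 2704 in SD and 2738, 2791, 2775, 2511 and 2274 in EE (0.11, SE 0.090). Suclg2, the GTP-forming beta subunit, was at 6548, 7136, 7408, 6830 and 7624 in SD and 7332, 6790, 7583, 7192 and 7357 in EE (0.029, SE 0.075). Suclg1, the alpha subunit common to both forms, ranged over 5655 to 7984 in SD and 6310 to 7547 in EE (0.094, SE 0.10).

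Fumarase and the malate dehydrogenases close the cycle. Fh (gene ID 24368), fumarase, was at 2315, 3060, 2529, 4580 and 2592 in SD and 3485, 3573, 3977, 3741 and 3284 in EE. SD replicate 4 exceeded all other libraries while the 4 other SD libraries lay below every EE library. The difference was 0.29 (SE 0.16, adjusted p = 0.702) with SD replicate 4 and 0.45 (SE 0.091, adjusted p = 0.229 by limma) without it, a 1.37-fold higher level. Mdh2 (gene ID 81829), the mitochondrial malate dehydrogenase, was at 6096, 6483, 6479, 7312 and 5743 in SD and 7639, 7224, 8026, 7769 and 7498 in EE. Only EE replicate 2 lay below the highest SD library, which was SD replicate 4, and the difference was 0.25 (SE 0.082, adjusted p = 0.577) or 0.30 without that library. Mdh1 (gene ID 24551), the cytosolic form used to shuttle reducing power, was at 10844, 10981, 9711, 11795 and 11787 in SD and 12208, 11748, 12923, 12705 and 12122 in EE, a difference of 0.16 (SE 0.081, adjusted p = 0.687) and of 0.19 without SD replicate 4 (SE 0.075, adjusted p = 0.430).

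Isozyme shares, which do not depend on scaling between libraries, were compared for 8 families by a two-sided exact permutation test over 252 arrangements of the libraries. Each share is the percentage of the family's counts that fell on the first isozyme, not corrected for gene length. Ldha made up 85.6, 83.6, 85.0, 79.9 and 86.3% of Ldha plus Ldhb counts in SD and 87.3, 90.6, 91.1, 87.5 and 85.7% in EE. All EE libraries but replicate 5 exceeded every SD library, and the difference was 4.37 percentage points (exact permutation p = 0.0159, adjusted over the 8 shares 0.127). Without SD replicate 4, whose share was the lowest, it was 3.32 points (exact permutation p = 0.0397, adjusted 0.318). The smallest p that 5 against 5 libraries allow is 0.00794. For the other families the difference lay between -1.38 points (Mdh1 of Mdh1 plus Mdh2) and 1.10 points (Sucla2 of Sucla2 plus Suclg2), with exact permutation p from 0.286 to 0.952. The Mdh1 share was nearly constant in EE, at 61.5 to 62.1%, and spread over 60.0 to 67.2% in SD. Without SD replicate 3 its difference was -2.17 points (exact permutation p = 0.0318).

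**Figure D5:**
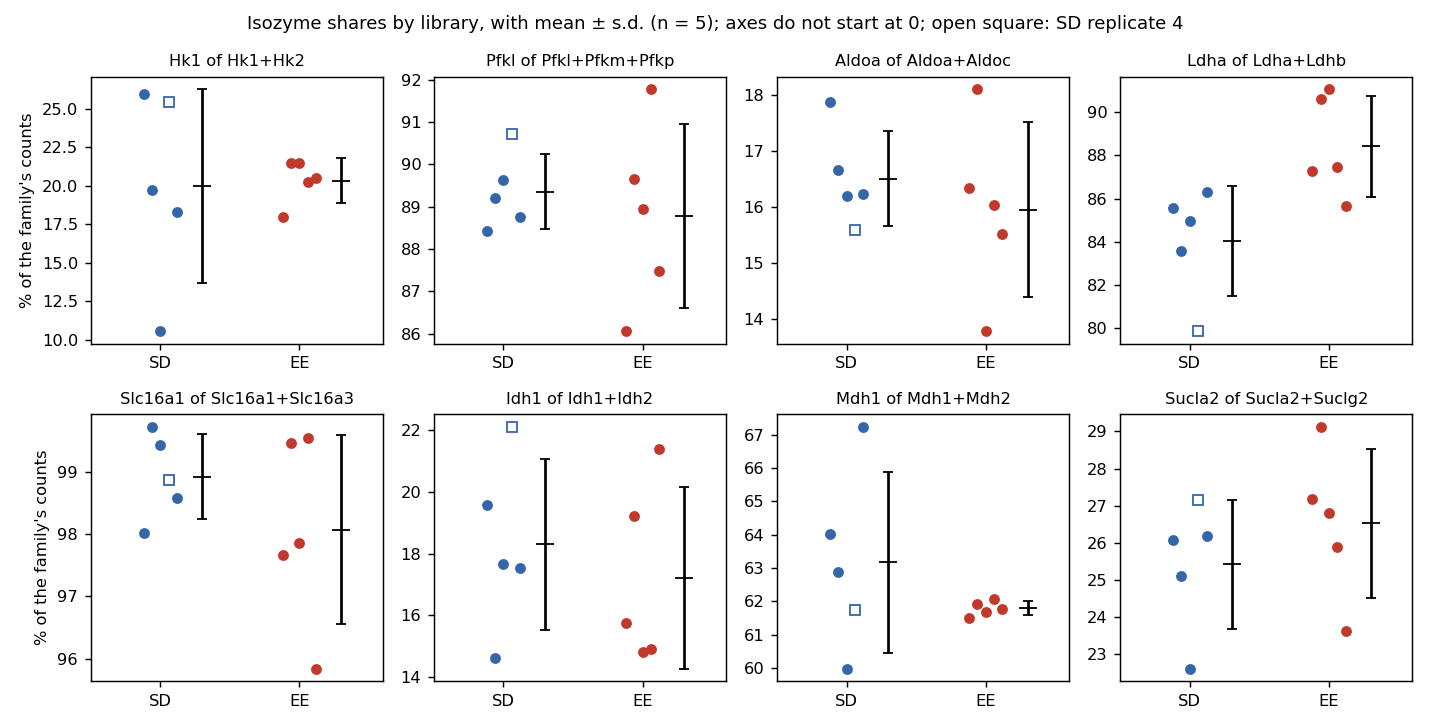
Share of a family's counts that fell on the first-named isozyme (y axis, %, axes not starting at 0) in each SD and EE library, with mean ± s.d. (n = 5) and SD replicate 4 as an open square. The Ldha share averages 84.1% in SD and 88.4% in EE, and EE replicate 5 is the only EE library within the SD range.

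Further genes of the same pathways, 58 tested from a list of 64 that are not among the 42, were more evenly divided. The log2 difference was above 0 for 36 and below 0 for 22, with a median of 0.053. At an unadjusted p under 0.05 in limma, 6 of the 58 (10.3%) were higher in EE and 3 of the 58 lower, where 3.35% of all genes were higher and 4.05% lower. Without SD replicate 4 they were 7 (12.1%) and 2 of the 58, beside 5.15% and 5.24% of all genes. The number lower was thus not far from the share of all genes. Named here among those higher in EE are Tigar (0.42), which lowers the fructose bisphosphate signal to phosphofructokinase, Pdhx (0.25), a binding subunit of the pyruvate complex, Pck2 (0.25), the mitochondrial phosphoenolpyruvate carboxykinase, Got2 (0.19), the mitochondrial aspartate aminotransferase, and Sdhc (0.16), a membrane subunit of succinate dehydrogenase. Tigar (0.35) and Pdhx (0.21) missed the threshold without SD replicate 4, where Bpgm (0.26), Fbp2 (0.37) and Sdhb (0.21) passed it.

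The 3 further genes called lower in EE were Pdk4, Pfkfb3 and Adpgk. Pdk4, the kinase that switches off pyruvate dehydrogenase, was at 827, 695, 910, 446 and 915 in SD and 366, 280, 668, 244 and 868 in EE. Its EE counts were highest in replicates 3 and 5, the libraries with the lowest casein share, and the difference was -0.66 (SE 0.29, adjusted p = 0.669), -0.82 without SD replicate 4 and -1.33 with casein share in the fit. Pfkfb3, which makes the activator of phosphofructokinase, was at 125, 19.4, 46.8, 30.9 and 120 in SD and 23.3, 19.8, 23.0, 11.7 and 25.6 in EE, with SD replicates 1 and 5 far above the rest and a difference of -0.62 (SE 0.24, adjusted p = 0.631). Adpgk, an ADP-dependent glucokinase, was at 924, 820, 758, 878 and 716 in SD and 683, 667, 474, 870 and 356 in EE (-0.43, SE 0.19, adjusted p = 0.657), and the difference was -0.40 without SD replicate 4, missing the threshold, and 0.015 with casein share in the fit. None of the further genes passed an adjusted p of 0.05 by limma.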

How the data were processed

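RNA of the milk fat layer was measured in 5 SD and 5 EE libraries, grouped by the sample labels. The authors sequenced stranded mRNA libraries single-end, and their processing notes name the rat build rn6 and DESeq2. Per the study's methods, reads were aligned to that build through a Bioconductor genome package, while the read counter and annotation are not given in the sources used here. The per-library values deposited by the authors are log2 values, named as regularized log values. All share 1 lowest value (5.46) where a gene has no reads, which is a property of variance-stabilized values, and a closed-form inverse turned them into normalized counts. Those were checked in 1354 genes against the authors' baseMean, a mean normalized signal. The log2 ratio had an s.d. of 0.022 over the 9 libraries without SD replicate 4, 0.0807 over all 10, and 0.0973 to 0.164 with any other library left out. The authors' fold change, standard error, statistic and p columns were not used.

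Of 16748 genes, 3756 had 1 value in every library, which left 12992 (12955 without SD replicate 4). The housing difference of each gene was fitted with lmFit and eBayes (trend on) of limma 3.58.1, run in R 4.3.3. Tests were two-sided, and p-values were adjusted by Benjamini-Hochberg over all genes tested. Log2 values and not counts were tested, so depth was not modelled. It enters through the spread and, at low counts, through the shared lowest value, which draws differences toward 0. Isozyme shares were compared by exact permutation. Depth was estimated as the total over the smallest step, with 89.2 to 98.2% of low values within 0.1 of a whole multiple.

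The members, gene lists, markers, motifs and tests were chosen with earlier results of these data known. The rule for named genes gives values in every library for members at an unadjusted p under 0.05, over all libraries or without SD replicate 4, and for isozyme families, with the other members by range. Further genes of the pathways (59 of 64 in the table) are named only at that threshold. Of these, 1 gene is not reported here. Alternatives were each library left out, quantile normalization, median centring, a mean count of at least 10, log2 of the count plus 1, no variance trend, library weights and a replicate block. The casein share as a covariate, libraries over 50% casein, and quantile normalization without SD replicate 4 were added after seeing the data. The fit was tested on simulated data. Promoter sequences came from RefSeq (GRCr8).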

Additional observations from a re-analysis of the deposited data

Results flagged for a closer look

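In 100 groups of 5 libraries (the 42 genes and 8 isozyme shares, in SD and in EE), 7 single libraries lay far from the other 4, where chance would give about 5. Tkt was at 34719 normalized counts in SD replicate 4, above the other SD libraries, and Ogdh was at 6170 in SD replicate 4, below them. Pdha1 was at 30906 in SD replicate 5, above the others. Rpia was low in SD replicate 1, at 366, and low in EE replicate 5, at 587. Ldha was low in EE replicate 5 as well, at 14947. Dlat was at 9148 in EE replicate 3, above the other EE libraries. Rpia and Ldha were both higher in EE over all libraries at an unadjusted p under 0.05. EE replicate 5 was the lowest EE library for both, so leaving it out could only raise their differences (to 0.72 and 0.46). Without SD replicate 1 the Rpia difference was 0.49, which still passed the threshold.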

How the results depend on the processing

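The count of members higher in EE (13 over all 10 libraries) was 20 without SD replicate 4 and 11 to 20 with any 1 library left out, and 23 with quantile normalization and SD replicate 4 left out. With the replicate number as a block it was 14, Ogdh being the call added, and 0 were lower. The numbers do not pair the samples (correlations of same-numbered libraries -0.0946 to 0.295), and only SD replicate 5 correlated best with its own number. The median log2 difference, 0.19, was 0.24 under quantile normalization and 0.17 to 0.20 with any library left out. The count of members lower in EE was 0 in every setting run. Differences that changed sign were all in genes that did not pass the threshold over all 10 libraries. With each library left out in turn these ranged from -0.14 to 0.15 for Pdhb, -0.069 to 0.043 for Idh2, -0.075 to 0.18 for Pgls, -0.022 to 0.26 for Tkt, -0.051 to 0.12 for Gpi and -0.071 to 0.032 for Pdha1. Quantile normalization gave 0.082 for Pdha1 and 0.027 for Idh2, and 0.024 for Pdha1 with SD replicate 4 left out too. Median centring gave 0.020 for Idh2, and library weights -0.0027 for Pdhb. The casein share as a covariate gave -0.079 for Gpi, 0.34 for Slc16a1, -0.014 for Slc16a3, -0.046 for Pgls, -0.16 for Pdhb, -0.039 for Aco1 and -0.015 for Suclg2. Libraries over 50% casein gave -0.054 for Gpi, 0.21 for Slc16a1, -0.067 for Pgls, -0.069 for Pdhb and -0.0052 for Aco1. With 1 library left out the Hk1 share differed by -2.02 to 1.83 points, the Pfkl share by -1.31 to 0.117 and the Mdh1 share by -2.17 to -0.36. Across single members, 750 values kept their direction and side of the threshold, 37 passed it, 22 lost it and 31 turned sign. The cause was not tested. Depth limits Slc16a3 and Pfkp, which had few reads.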
